A study of Mus musculus with 12 samples.

Results

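The Hox genes of the mouse lie in 4 clusters, and the 39 genes whose symbol is Hoxa, Hoxb, Hoxc or Hoxd with a number were examined together. A CpG position (site) was assigned to them when it lay inside a Hox gene or within 5 kb of it, which gave 1032 of the 421177 sites in the deposited table. Of these, 833 had a value in all 12 samples. HoxA on chromosome 6 held 304 sites, HoxB on chromosome 11 held 244, HoxC on chromosome 15 held 229 and HoxD on chromosome 2 held 255. The genes were chosen by name, not by any measured value. A gene window is the mean over the complete sites in and within 5 kb of a gene, with at least 3 such sites, and 37 Hox windows could be tested. Hoxc5 had 8 sites but 0 with values in all samples, so it has no tested window.

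The study measured CpG methylation by reduced representation bisulfite sequencing (RRBS), which reads short genomic fragments cut at CCGG, in the left ventricle of FVB/N mice at weaning, 3 weeks after birth. The question was what maternal obesity does to the heart of the offspring. From an age of 6 weeks onward the mothers ate either regular chow (RD) or a diet high in fat (HFD), were mated after 8 weeks to RD-fed males, and 12 offspring were measured. HFD offspring were 3 females and 3 males and RD offspring were 4 females and 2 males, all of wild-type genotype. The labels do not say how many mothers gave these offspring, so p-values measure the spread between these pups, some of which may be littermates. Whole ventricle was used, and a different mix of cell types cannot be told apart from different methylation within a cell type. HFD libraries carry the numbers 2 to 8 and RD libraries 9 to 14, so diet and library order cannot be told apart. Values were percentages without read counts. The depth behind each value is therefore unknown, and between 385299 and 417081 sites per sample had a value.

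Hox genes encode homeodomain transcription factors that specify position along the body axis. Genes at the 3′ end of a cluster (paralogues with low numbers) are turned on first and act toward the head, and genes at the 5′ end act in the trunk, limbs and genital region. In cells that do not use them the clusters are typically held silent by Polycomb proteins on CpG islands that carry little DNA methylation, while retinoic acid turns on the 3′ genes, among them Hoxb1 and Hoxa3, in progenitors of the heart's outflow region.

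Promoter sequences were shown for the Hox genes where deposited positions fell between 250 bases before and 50 bases after a listed start. RefSeq promoters on GRCm38.p6, the patch release of the mm10 build named in the submitters' processing notes, were available for 22 of the 39 genes (24 promoters), and 4 promoters held measured positions. Sequences run 5′ to 3′ along the gene's strand in lower case, and capitals mark the CpG dinucleotides that were measured. Hoxd1, a 3′ gene of HoxD, is on the plus strand at chr2:74762730-74763029 and has 29 CpGs, of which 12 were measured. Hoxa11, a 5′ gene that acts in limb and uterus, is on the minus strand at chr6:52245761-52246060 and has 15 CpGs, 6 of them measured. Hoxd12, a 5′ limb gene, is on the plus strand at chr2:74674763-74675062 with 13 CpGs and 2 measured. Hoxd4, which acts in the hindbrain and neck vertebrae, is on the plus strand at chr2:74721728-74722027 with 4 CpGs and 2 measured.
Hoxd1: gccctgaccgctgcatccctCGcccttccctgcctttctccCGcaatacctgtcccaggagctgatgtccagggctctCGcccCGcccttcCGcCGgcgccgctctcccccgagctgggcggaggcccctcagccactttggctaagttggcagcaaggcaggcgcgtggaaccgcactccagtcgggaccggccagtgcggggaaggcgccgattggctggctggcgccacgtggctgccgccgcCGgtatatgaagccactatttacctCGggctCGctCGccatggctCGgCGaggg
Hoxa11: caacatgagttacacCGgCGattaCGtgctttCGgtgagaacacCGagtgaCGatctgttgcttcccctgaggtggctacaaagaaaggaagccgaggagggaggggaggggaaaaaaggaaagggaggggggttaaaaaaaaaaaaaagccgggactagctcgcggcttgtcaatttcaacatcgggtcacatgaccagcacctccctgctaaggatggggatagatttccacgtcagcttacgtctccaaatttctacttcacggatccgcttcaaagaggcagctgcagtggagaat
Hoxd12: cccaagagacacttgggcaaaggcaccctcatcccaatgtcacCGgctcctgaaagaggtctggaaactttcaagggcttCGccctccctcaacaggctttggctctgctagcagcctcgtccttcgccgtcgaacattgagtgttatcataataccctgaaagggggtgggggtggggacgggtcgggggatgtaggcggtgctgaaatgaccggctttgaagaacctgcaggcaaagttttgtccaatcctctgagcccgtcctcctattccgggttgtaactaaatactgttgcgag
Hoxd4: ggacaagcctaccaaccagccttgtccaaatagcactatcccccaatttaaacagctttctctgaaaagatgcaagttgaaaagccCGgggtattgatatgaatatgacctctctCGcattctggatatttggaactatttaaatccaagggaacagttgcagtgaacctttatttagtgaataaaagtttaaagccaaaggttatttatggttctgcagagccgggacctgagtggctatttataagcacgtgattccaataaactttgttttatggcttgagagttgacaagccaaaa

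Methylation differed widely between these 4 sequences. The measured CpGs of the CpG-rich Hoxd1 promoter averaged 2.78% (site means from 1.43 to 5.42%), and those of Hoxa11 averaged 5.07% (2.60 to 6.87%). The sites of Hoxd12, at -207 and -170 bases from its start, averaged 8.44% and 17.7%. The CpG-poor Hoxd4 promoter was methylated at 44.9% and 55.3% at its measured sites, at -164 and -135 bases from the start, in the 11 samples that had a value. At the second of these Hoxd4 sites single samples ranged from 35.7 to 83.3%. The letters CCGG, the site cut in RRBS and the same on both strands, were in 19 of the 24 Hox promoters and in 52.8% of all 32817 listed promoters of the same length. Hox promoters had a median of 14.5 CpGs against 7 over all promoters.

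Across the clusters, methylation was low in both diets. Of the 833 complete Hox sites, 735 (88.2%) had a mean under 10%, 98 (11.8%) lay between 10 and 80%, and 0 lay above 80%. Over all 306534 complete autosomal sites the shares were 48.7%, 23.5% and 27.8%. Among 500 bp tiles with at least 3 sites, 89 of 100 Hox tiles were under 10% against 39.7% of all autosomal tiles. Among gene windows, 31 of 37 Hox windows were under 10%, with a median of 5.03% against 31.0% over all 19279 windows. The 60 other homeobox or paired-box genes set beside them (among them Pax, Lhx, Dlx and Irx genes) had 39 windows under 10%, a median of 6.56% and a maximum of 34.1%. The 199 Hox sites that lacked a value in some sample were somewhat more methylated, with a mean of 8.23% against 5.47% at complete sites. Of these 199, 27.1% were at 10% or more and again 0 were above 80%.

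**Figure D1:**
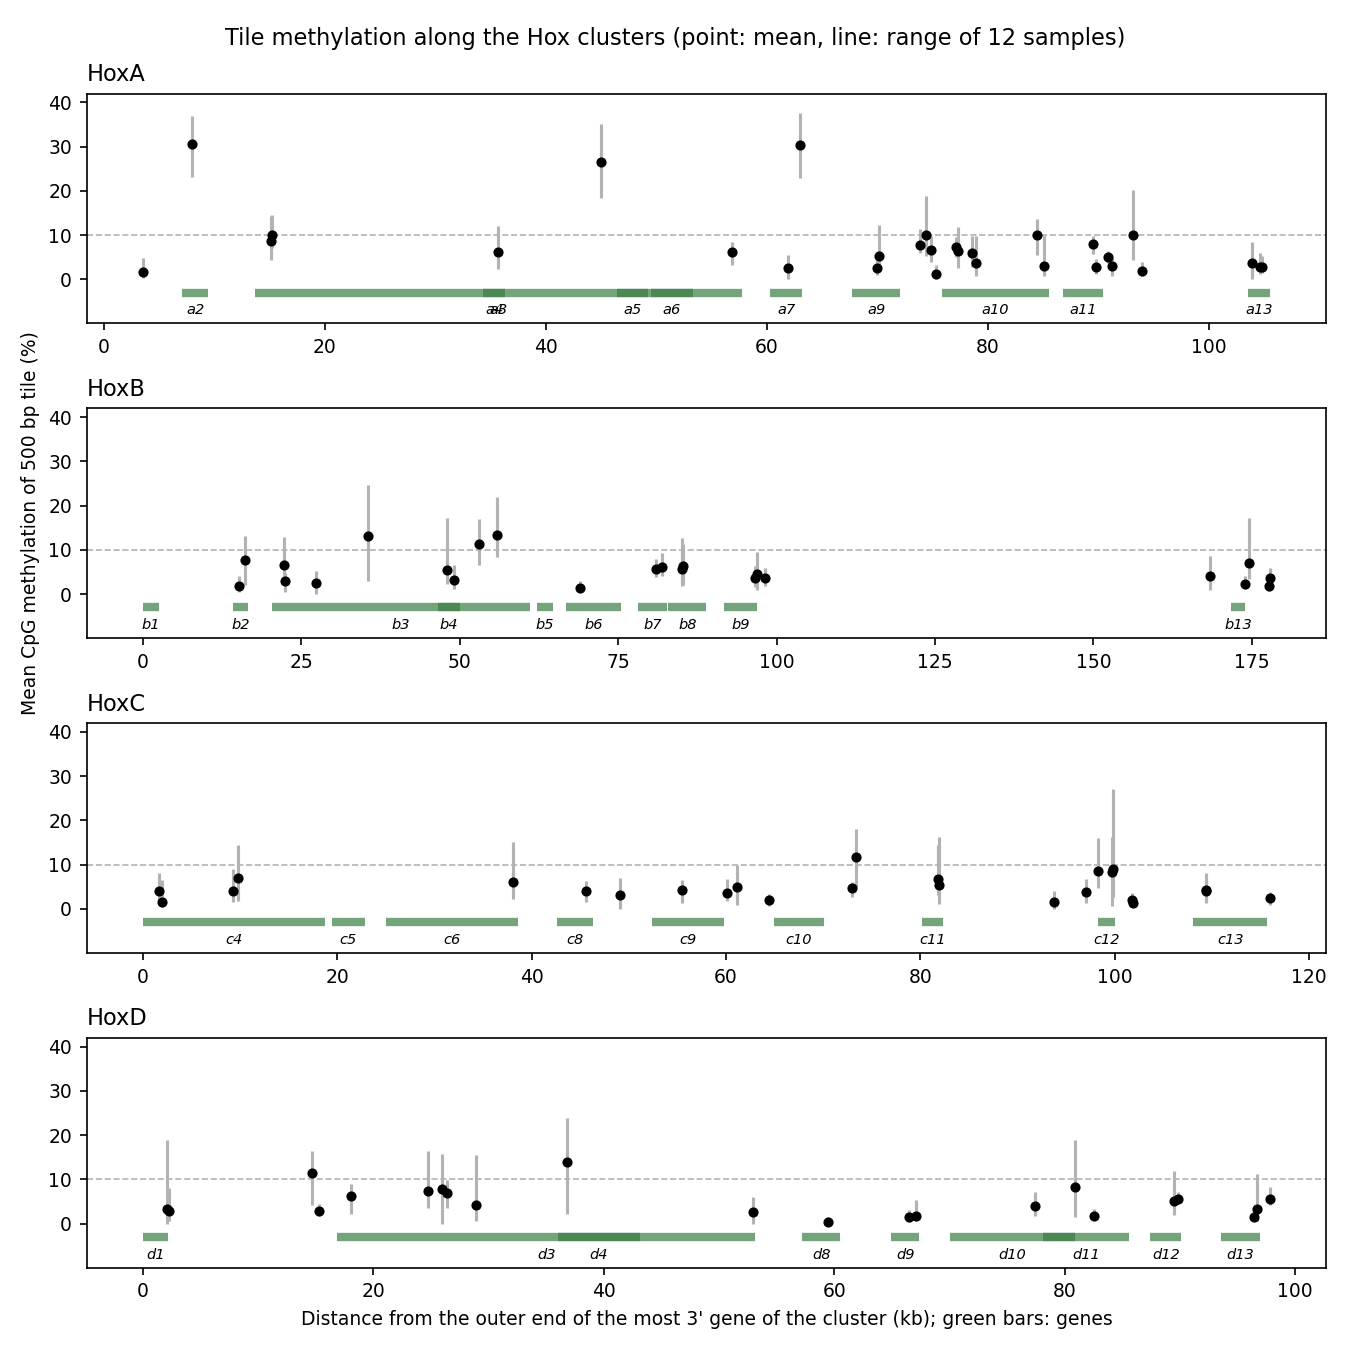
Mean CpG methylation (%) of 500 bp tiles along the 4 Hox clusters, against distance in kb from the outer end of the gene nearest the 3′ end. Points are means over 12 samples, lines the range over samples, green bars the genes, and the dashed line marks 10%. Most tiles lie under 10%, and 3 HoxA tiles stand above 25%, at Hoxa2, 3′ of Hoxa5 and at Hoxa7.

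The 3 highest tiles were all in HoxA. The tile inside Hoxa2 (chr6:52163296-52163437, 5 sites), a gene of hindbrain and cranial neural crest, averaged 30.5% with samples from 23.0 to 36.9%. The tile inside Hoxa7 (chr6:52218360-52218412, 3 sites) averaged 30.4% with samples from 23.0 to 37.6%. The tile beside Hoxa5 and Hoxa6, inside the long Hoxa3 gene (chr6:52200299-52200483, 8 sites), averaged 26.5% with samples from 18.5 to 35.0%. Every sample was above 18% in all 3, so these tiles were methylated in both diets. Highest in the other clusters were the Hoxd3/Hoxd4 tile (13.8%), a Hoxb3 tile (13.3%) and a tile between Hoxc10 and Hoxc11 (11.7%). Among sites complete in all samples, the highest were one in Hoxb1 (51.0%) and one beside Hoxa5 (46.5%).

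The position of the partly methylated sites differed between clusters. HoxA had 43 sites (17.1%) at 10% or more, HoxB 27 (12.4%), HoxC 14 (8.38%) and HoxD 14 (7.07%). In HoxD such sites made up 4.73% of the sites inside genes and 20.7% of the sites between genes. In HoxB the order was the other way, at 14.4% inside and 2.78% between. Inside means within the listed span of any Hox gene, and between means the other sites within 5 kb, outer flanks included. The long spans of Hoxa3, Hoxb3 and Hoxd3 cover neighbouring Hox genes, and the Hoxb3 window held 18 of the 27 HoxB sites. Sites farther than 5 kb from a gene, as in the gap between Hoxb9 and Hoxb13, were not counted. HoxA (16.6% and 18.4%) and HoxC (8.54% and 8.24%) showed little difference. Measured from listed starts, 7 of 90 HoxA sites within 1 kb (7.78%) and 36 of 161 farther sites (22.4%) were at 10% or more. For HoxD these were 3 of 133 (2.26%) and 11 of 65 (16.9%).

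Along HoxA, the windows of most 3′ genes were more methylated than those of 5′ genes. Hoxa2 averaged 13.99% (samples from 11.6 to 16.0%), Hoxa3, which acts in pharyngeal arch organs, 10.1% (8.48 to 12.5%), and Hoxa4 6.88% (3.42 to 12.0%). Hoxa5, a gene of lung and neck patterning, was the highest Hox window over complete sites at 23.3% (17.1 to 31.1%), and its neighbour Hoxa6 averaged 14.7%. With missing values allowed Hoxa5 was at 20.6%, under Hoxd4 at 22.4%. The Hoxa5 window holds 10 complete sites, and 0 of them belong to it alone. The tile of 8 sites beside Hoxa5, which lies inside Hoxa3, is part of both the Hoxa5 and the Hoxa6 window. From Hoxa7 (8.85%) the level declined through Hoxa9 (6.71%), Hoxa10 (6.03%) and Hoxa11 (4.83%) to Hoxa13, a gene of digits and urogenital tract, at 2.86% (1.67 to 5.28%), or 4.33% with missing values allowed. Spearman's rho between paralogue number and level was -0.78 over 10 genes, and between -0.82 and -0.50 in single samples. The median over paralogues up to 7 was 12.0% and over paralogues 8 to 13 5.43%. Neighbouring windows share sites and are not independent, and over so few genes rho can move strongly with 1 gene.

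HoxB showed a weaker order, with a rho of -0.37 over 10 genes (-0.72 to -0.067 in single samples). Hoxb1, the hindbrain gene at the 3′ end, was the only HoxB window above 10%, at 17.5% (12.3 to 25.5%), and rests on 4 sites. Only 1 of these 4 sites was at 10% or more, the site at 51.0%, and the other 3 averaged 6.36%. Hoxb3 averaged 8.0%, and Hoxb2, Hoxb4, Hoxb5, Hoxb7, Hoxb8, Hoxb9 and Hoxb13 lay between 3.03% and 5.80%. Hoxb6 was the lowest of all Hox windows at 1.80% (0.63 to 3.44%). Single animals stood out: Hoxb4, known for expanding blood stem cells, was at 13.3% in RD female 2 and at most 8.56% in the other samples. Hoxb7 and Hoxb8, which share most sites, were at 10.4% and 10.2% in RD male 2, above the next sample (RD female 2, 7.17% and 7.13%).

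HoxC windows were low and even, from 3.47% at Hoxc9 to 7.02% at Hoxc10, and rho was 0.00 over 8 genes (-0.31 to 0.62 in single samples). Hoxc4, the most 3′ gene of the cluster, averaged 4.39%, Hoxc6 5.03%, and Hoxc8, a gene of thoracic vertebrae and forelimb motor neurons, 4.12%. Hoxc11 averaged 7.0%, Hoxc12 4.94% and Hoxc13, a gene of hair and nail, 3.61%. With missing values allowed, the 8 sites of Hoxc5 averaged 6.46% ± 3.45 in HFD and 5.25% ± 1.78 in RD offspring, with samples from 2.19 to 12.5%.

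In HoxD 8 of the 9 windows lay between 3.10% and 7.03%, and rho was -0.083 over 9 genes (-0.58 to 0.20 in single samples). Hoxd3 averaged 7.03%, and the 5′ genes Hoxd8, Hoxd9, Hoxd10, Hoxd11, Hoxd12 and Hoxd13, of which the last act in limb and digit formation, averaged between 3.12% and 4.66%. Hoxd4 was the exception at 13.8%, with samples from 2.08 to 23.8%, but only 3 of its 14 sites were complete. With missing values allowed, the Hoxd4 mean was 22.3% ± 7.81 for HFD and 22.5% ± 3.11 for RD. Hoxd1 had the lowest mean of the cluster (3.10%) and spread from 0.325% in HFD female 4 to 11.9% in RD female 1. HFD male 3 (7.93%) and RD male 2 (6.28%) were next, and the other 9 samples were at or under 3.46%. These values rest on the complete sites, and with missing values allowed (27 sites) Hoxd1 averaged 5.95%, above Hoxd8 to Hoxd13, with RD female 1 at 29.4%. All complete Hoxd1 sites lie around the start of the gene. At the site 4 bases before it RD female 1 had 22.5%, HFD male 3 12.1% and RD male 2 11.1%, against 0 to 5.41% elsewhere. RD female 1 also had 17.5% 21 bases after the start, where 8 of the 12 samples were at 0%. These animals were also among the 4 with the highest mean at weakly methylated sites outside the Hox clusters (3.12%, 3.10% and 2.82%, against 1.60% in the lowest sample), and the part of that level in the Hoxd1 values was not tested.

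**Figure D2:**
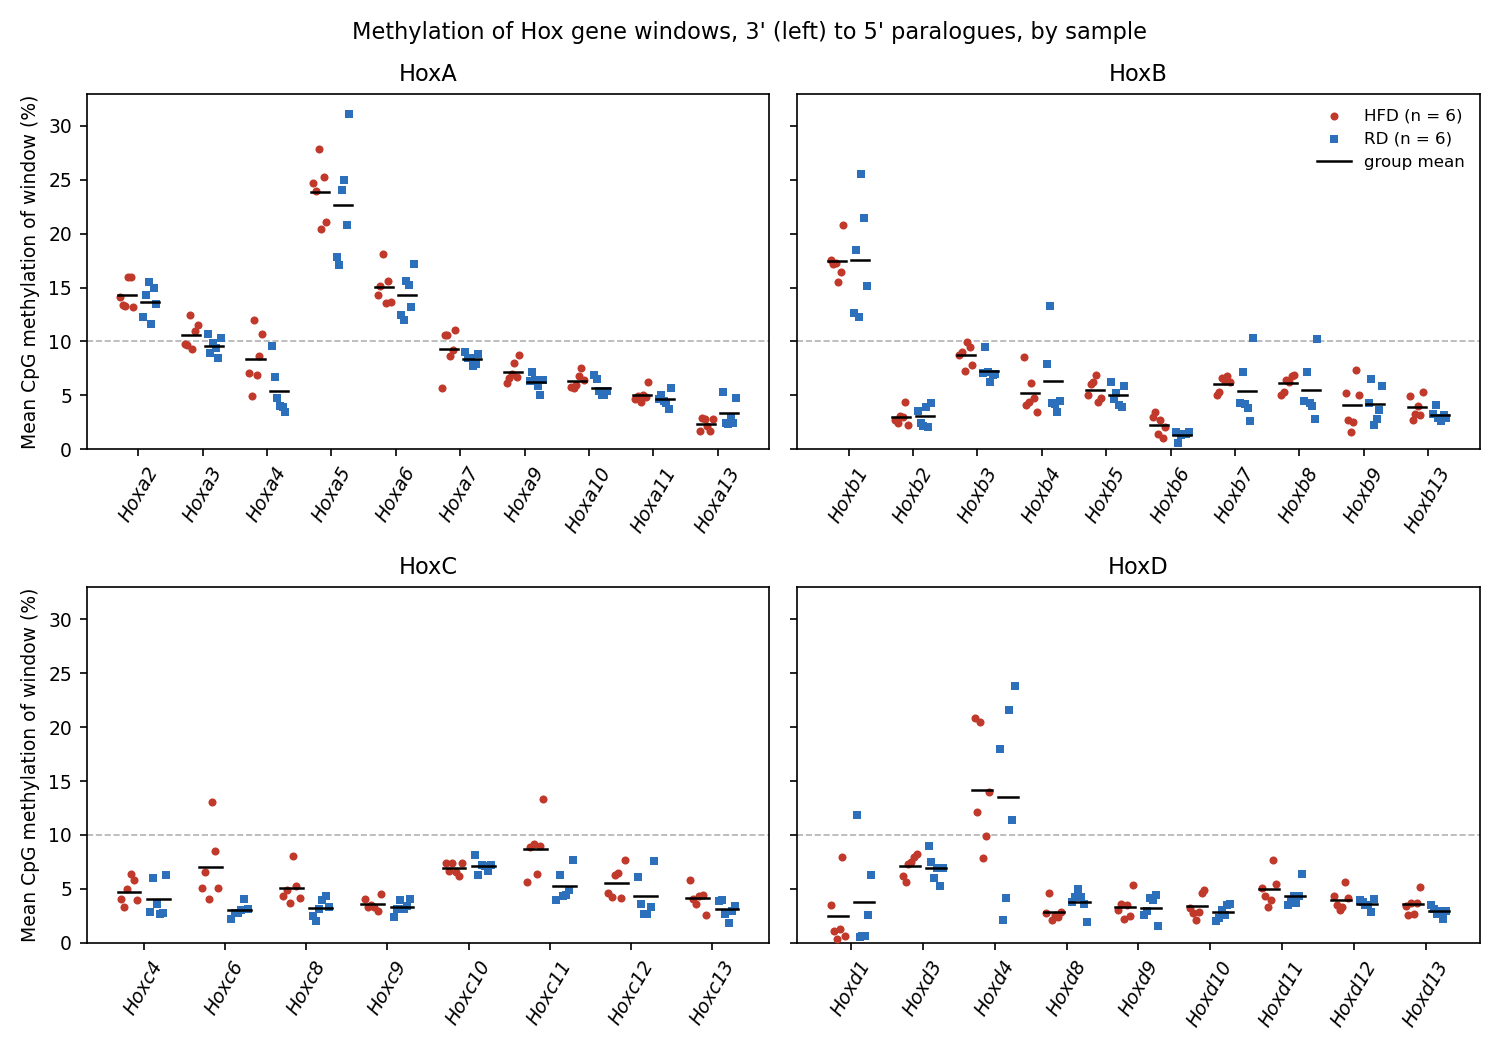
Mean CpG methylation (%) of each tested Hox gene window, from 3′ genes on the left to 5′ genes on the right, for 6 HFD (red circles) and 6 RD (blue squares) samples, with group means as bars and a dashed line at 10%. Over complete sites Hoxa5 is highest at 23.3%, and the levels of HoxA decline toward Hoxa13 at 2.86%.

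As means over complete sites, HoxA was the most and HoxD the least methylated cluster. Over the 12 samples the mean was 6.64% for HoxA, 5.57% for HoxB, 5.34% for HoxC and 4.0% for HoxD. HoxA was highest in 11 of 12 samples, the exception being RD female 2 (HoxB 6.87%, HoxA 6.37%), and HoxD was lowest in 12 of 12. HoxB was above HoxC in 7 samples, so the order of these 2 was not settled by the samples. This order depended on how sites were weighted. When each 500 bp tile counted once, HoxB (9.07%) was above HoxA (8.26%) and HoxD (6.54%) above HoxC (6.37%), and over its whole span HoxB was at 10.99%.

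Over complete sites, offspring of HFD mothers had a slightly higher mean in each cluster, with overlapping groups, but with missing values allowed the HoxD difference was -0.406 points. HoxA ranged from 6.14 to 7.60% in HFD (median 6.94%) and from 5.69 to 7.19% in RD (median 6.37%), a difference of 0.478 percentage points between means of 6.88% ± 0.514 and 6.40% ± 0.579 (SD, n = 6 each). HoxB averaged 5.91% ± 0.705 and 5.24% ± 1.11, a difference of 0.668 points. HoxC had the widest gap, 5.81% ± 0.736 (5.04 to 6.84%) against 4.86% ± 1.11 (3.84 to 6.77%), a difference of 0.955 points. HoxD averaged 4.14% ± 0.835 and 3.86% ± 0.514, a difference of 0.274 points. It leaned on HFD male 4 (5.29%) and HFD male 3 (5.07%), as the other HFD samples were at 3.28 to 3.88%. Females and males did not give the same differences: 0.0807 and 0.924 points in HoxA, 0.331 and 0.912 in HoxB, 0.954 and 0.641 in HoxC, and -0.301 and 0.879 in HoxD. The male values rest on 2 RD males, which lay far apart in HoxC (RD male 1 at 4.203%, RD male 2 at 6.775%). Among RD females, RD female 1 stood highest in HoxD at 4.779%, and the others were at 3.492 to 3.650%. Single animals can therefore move these differences, and whether the sexes differ in them was not tested for cluster means. The mean over 148430 weakly methylated autosomal sites elsewhere (under 10%) was also higher in HFD, at 2.40% ± 0.485 against 2.19% ± 0.655. With each sample's value at those sites subtracted, the cluster differences were 0.274, 0.464, 0.751 and 0.0697 points.

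**Figure D3:**
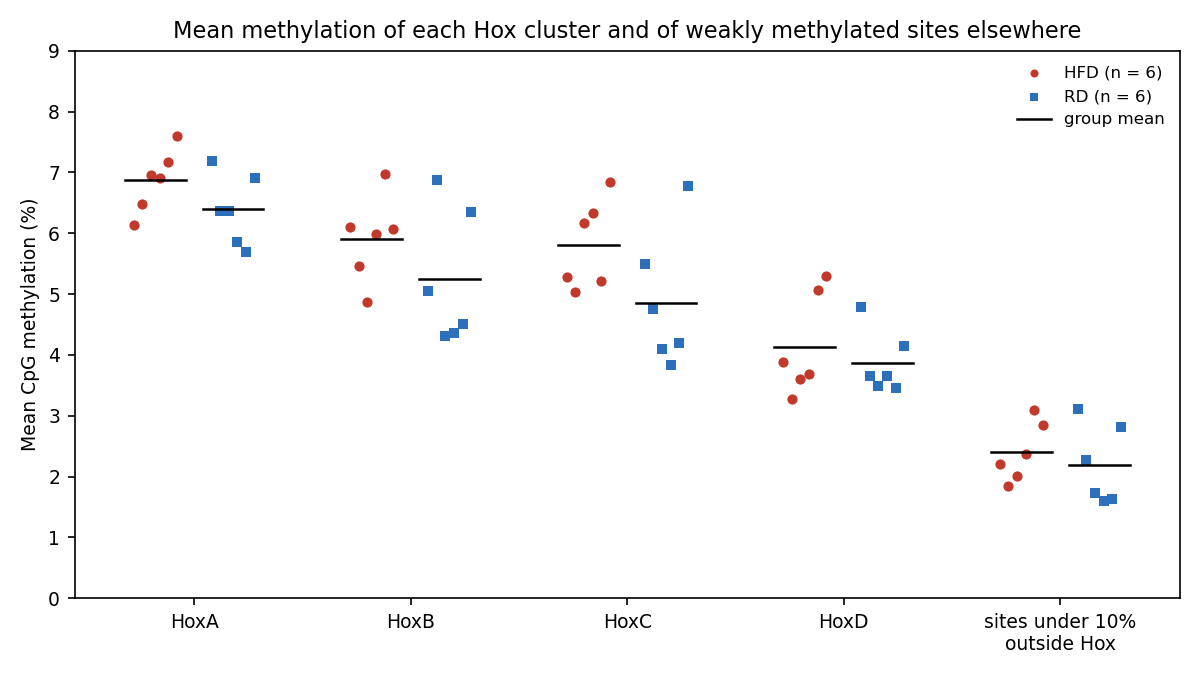
Mean CpG methylation (%) of the 4 Hox clusters and of weakly methylated sites elsewhere, 1 point per sample (red circles HFD, blue squares RD, 6 each), bars at the group means. HFD means are above RD means in each column, and the groups overlap in all of them.

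For single genes, most Hox windows had a higher mean in HFD offspring, but none passed the test. With limma on log2-transformed ratios of methylated to unmethylated rate, sex as a covariate and Benjamini-Hochberg adjustment over 19279 windows, 0 of 37 Hox windows had an adjusted p under 0.05, against 0.104% of all windows. At an unadjusted p under 0.05 there were 5 (13.5%), against 7.46% of all windows. All 5 were higher in HFD, a direction and threshold that 3.62% of all windows met. HFD means were above RD means in 29 of 37 Hox windows (78.4%), against 49.7% of all windows. With missing values allowed it was 25 of 38. Among windows under 10% the counts were 24 of 31 (77.4%), against 58.7%. The median difference was 0.642 points over Hox windows and -0.00843 over all windows, and 0.622 against 0.157 among those under 10%. The windows share sites and samples, so their common direction is not independent evidence. HFD and RD values were separate in 0 of 37 Hox windows, against 0.612% of all windows.

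The 5 windows were spread over 3 clusters. Hoxc6, which acts in the thoracic region, ranged from 4.03 to 13.02% (median 5.82%) in HFD and from 2.24 to 4.08% (median 2.92%) in RD, and only HFD female 4 fell among the RD values. Its means were 7.05% ± 3.32 and 3.01% ± 0.607, with a log2 ratio difference of 0.56 (SE 0.14) and an adjusted p of 0.348. The window rests on 4 complete sites, and with missing values allowed (13 sites) the means were 6.28% ± 2.21 and 4.39% ± 1.32, a difference of 1.88 points. Hoxc11 ranged from 5.61 to 13.4% (median 8.94%) in HFD and from 3.93 to 7.68% (median 4.69%) in RD (adjusted p = 0.531), with RD male 2 and RD female 2 inside the HFD range. Hoxc8 ranged from 3.66 to 8.02% in HFD and from 2.02 to 4.31% in RD (adjusted p = 0.555). Its window holds 11 complete sites, among them all 4 of Hoxc6, so Hoxc6 and Hoxc8 are not separate instances. Hoxa4 averaged 8.37% ± 2.60 and 5.39% ± 2.34 (adjusted p = 0.640), with RD female 1 at 9.55% above 4 of the 6 HFD samples, and the difference was 1.5 points when tiles counted once, against 2.99. Hoxb6 averaged 2.27% ± 0.938 and 1.33% ± 0.354 (adjusted p = 0.65), a difference of 0.938 points that was 1.51 with tiles counted once.

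Some Hox genes had higher means in RD. Hoxa13 averaged 2.35% ± 0.565 in HFD and 3.37% ± 1.30 in RD, where RD female 1 (5.28%) and RD male 2 (4.75%) were the highest. Without RD female 1 the Hoxa13 difference was -0.636 points, against -1.02 with it. These animals also had the highest means of the RD samples at weakly methylated sites elsewhere (3.12% and 2.82%), and the part of that level in the Hoxa13 values was not tested. Hoxd8 averaged 2.89% ± 0.897 and 3.79% ± 1.02, a difference of -0.902 points that was -0.375 with sites inside the gene only and -2.02 with tiles counted once. Hoxd1 averaged 2.46% ± 2.90 and 3.75% ± 4.56, and without RD female 1 the HFD mean was 0.335 points above the RD mean. None of these 3 had an unadjusted p under 0.05.

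**Figure D4:**
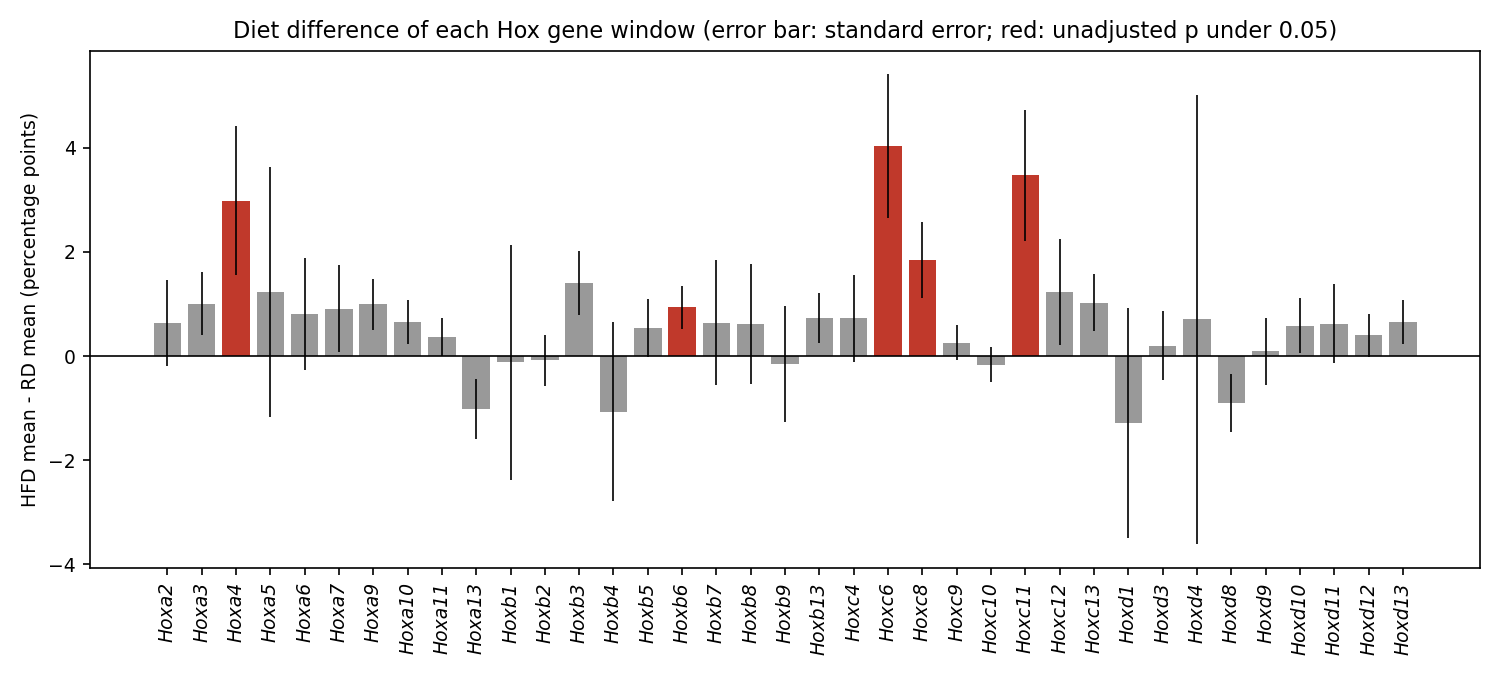
Difference of means, HFD minus RD, in percentage points for the 37 tested Hox gene windows, with the standard error of the difference. Red bars mark the 5 windows with an unadjusted p under 0.05, and 29 of the 37 bars are above 0. Hoxc6 is the largest at 4.04 points. With missing values allowed it is 1.88, and Hoxc11 is larger at 4.12.

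At finer scale no Hox feature passed either. Of 47 Hox tiles with a mean of 5 to 95%, 0 had an adjusted p under 0.05, against 0.0294% of all 23791 tiles. At an unadjusted p under 0.05 there were 7 (14.9%), against 7.81%, and all 7 were higher in HFD, against 3.17% of all tiles. The limit was set on the mean over both diets, so a tile low in RD could enter through its HFD values. The Hoxc6 and Hoxc12 tiles below, with RD means under 5%, entered in this way, so the 7 are no evidence of a direction. Without the limit 8 of 100 Hox tiles had an unadjusted p under 0.05 (limma), and 64 of 100 were higher in HFD. In Hoxb3 the tile at chr11:96312320-96312348 ranged from 12.2 to 21.8% in HFD (median 15.8%) and from 8.27 to 12.6% in RD (median 10.4%), with an adjusted p of 0.377. Only RD male 2 was inside the HFD range. A second Hoxb3 tile, at chr11:96332722-96332795, averaged 17.3% ± 5.51 and 9.13% ± 3.96 (adjusted p = 0.463), a difference of 8.17 points that was 2.15 with missing values allowed. In Hoxc6 the tile at chr15:102998770-102998826 averaged 8.39% ± 3.82 and 3.72% ± 1.07 (adjusted p = 0.364). Its 3 sites are among the 4 complete sites of the Hoxc6 window. In Hoxc12 the tile at chr15:102936962-102936999 averaged 13.7% ± 8.26 and 4.18% ± 0.977 (adjusted p = 0.430), with HFD samples from 2.63 to 27.1% and RD samples from 2.78 to 5.28%.

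Of 328 Hox sites tested singly, 0 had an adjusted p under 0.05, against 0.0102% of all 157524 sites. At an unadjusted p under 0.05 there were 29 (8.84%), against 6.53%, and 25 of them were higher in HFD, a direction and threshold met by 2.88% of all sites. At 6 Hox sites (1.83%) HFD and RD values did not overlap, against 0.482% of all sites. A Hoxc12 site at chr15 position 102937026 ranged from 8.70 to 25.0% in HFD (median 15.2%) and from 0 to 7.14% in RD, where 4 samples were at 0% (adjusted p = 0.176). The site 27 bases before it, position 102936999, ranged from 5.26 to 21.4% in HFD and from 0 to 5.00% in RD (adjusted p = 0.335). A Hoxb3 site at chr11 position 96332781 ranged from 19.2 to 33.3% in HFD and from 0 to 16.7% in RD (adjusted p = 0.406). The other 3 sites, in the other Hoxb3 tile, in Hoxc11 and in Hoxa13, had means of 18.6%, 10.1% and 10.2% in HFD and 9.67%, 3.31% and 2.45% in RD. The Hoxa13 site thus ran opposite to its gene window.

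**Figure D5:**
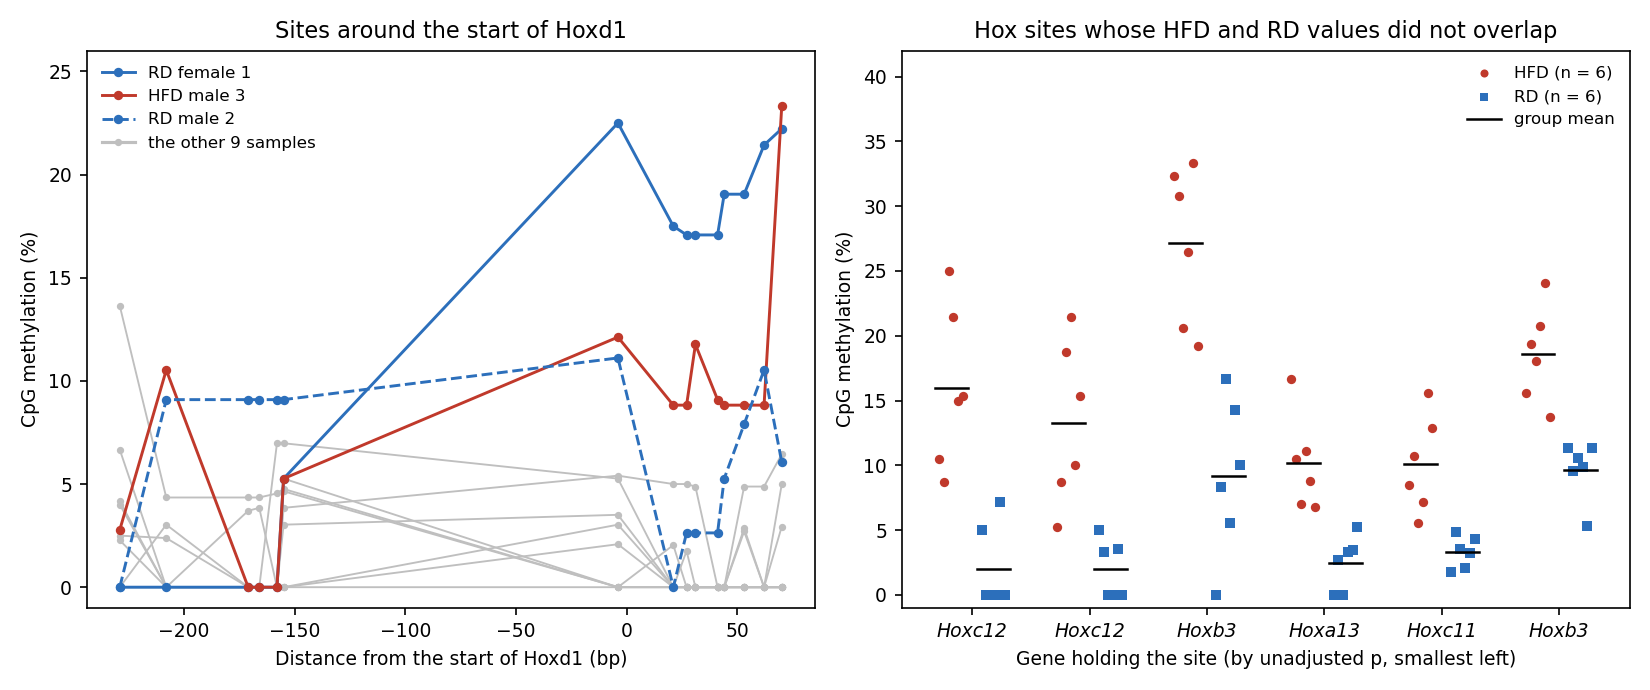
Left, CpG methylation (%) at the sites around the start of Hoxd1 against distance in bases, 1 line per sample, with RD female 1 (22.5% at 4 bases before the start), HFD male 3 and RD male 2 coloured. Right, the 6 Hox sites whose HFD (red circles) and RD (blue squares) values did not overlap, with group means as bars.

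At promoters, taken as 1 kb on each side of a listed start, 14 Hox windows had enough sites and 13 were under 10%. Their median was 3.19%, against 2.17% over all promoter windows, of which 83.2% were under 10%. With limma, 0 of 14 had an adjusted p under 0.05, against 0.0634% of all 7892, and 0 had an unadjusted p under 0.05, against 6.42%. Hoxa7, whose 3 promoter sites are those of the tile described above, was the one Hox promoter window over 10%, at 33.1% ± 5.47 in HFD and 27.8% ± 4.01 in RD (adjusted p = 0.824). Hoxb1 averaged 5.80% and 6.93%, Hoxc4 2.27% and 2.53%, Hoxd12 6.98% and 6.56%, and Hoxd13 2.88% and 2.18%. Single animals moved these differences: for Hoxd13 it was 0.234 points without HFD male 4 against 0.694 with it, and for Hoxb1 it was between -1.97 and -0.242 with 1 animal left out, against -1.13.

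Between the sexes 0 of 37 Hox windows had an adjusted p under 0.05, against 0.0156% of all windows, and 3 had an unadjusted p under 0.05, against 5.7% of all windows. These were Hoxd10, Hoxd11 and Hoxc6, where females were 1.33, 1.55 and 2.97 points lower than males (smallest adjusted p = 0.799, limma). The Hoxc6 value rests on 4 complete sites. With missing values allowed (13 sites) its direction turned, with females 0.234 points higher, while Hoxd10 and Hoxd11 kept theirs. For the diet-by-sex interaction 0 Hox windows passed, against 0.0% of all windows. Hoxd3 and Hoxa10 had an unadjusted p under 0.05, against 5.1% of all windows (adjusted p = 0.964 for both).

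Companion genes of the Hox system gave no called difference between diets, where 0.104% of all windows were called. Among the DNA-binding partners of Hox proteins (Meis, Pbx and Pknox genes) 0 of 8 windows passed, 5 with a higher and 3 with a lower mean in HFD. Polycomb genes gave 0 of 16 (10 higher, 6 lower) and Trithorax genes, which oppose Polycomb, 0 of 6 (2 higher, 4 lower). Upstream regulators such as retinoic acid receptors and Cdx genes gave 0 of 12 (5 higher, 7 lower). RNA genes in and neighbours of the clusters gave 0 of 18 (12 higher, 6 lower), and the other homeobox or paired-box genes 0 of 60. The genes with the smallest p-values ran both ways. The Hox partner Pbx3 was at 4.0% ± 2.52 in HFD and 1.90% ± 0.864 in RD, while its relative Pknox2 was at 43.6% ± 0.744 and 45.0% ± 1.17. The Polycomb gene Pcgf2 was at 4.61% ± 1.21 and 3.05% ± 1.24, while Phc2 was at 24.5% ± 0.548 and 25.6% ± 1.15. Of the Trithorax list, Ash2l was at 71.8% ± 3.23 and 75.9% ± 2.97 and Kdm6b at 29.4% ± 0.808 and 28.8% ± 1.02. Of the upstream regulators, Aldh1a2, which makes retinoic acid, was at 20.8% ± 1.69 and 19.0% ± 1.39, and the receptor Rarg at 20.7% ± 1.61 and 23.1% ± 2.30. The flanking genes Skap1 and Snx10 were at 65.4% ± 0.566 and 64.2% ± 0.650, and at 80.02% ± 2.96 and 83.9% ± 3.48. Over the other homeobox or paired-box genes 36 of 60 means were higher in HFD (median difference 0.134 points), and 4 had an unadjusted p under 0.05, against 49.7% and 7.46% of all windows.

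Of the cell type markers, only endothelial genes had called windows. All 6 endothelial windows had lower means in HFD (median difference -7.09 points), as had 9701 of all 19279 windows, and 2 of the 6 passed, against 0.104% of all windows: Egfl7, an endothelial secreted factor, at 15.9% ± 1.43 against 26.5% ± 1.72 (adjusted p = 0.00136, limma), and the adhesion molecule Pecam1 at 39.4% ± 2.31 against 49.2% ± 2.76 (adjusted p = 0.0450). In the cardiomyocyte list 0 of 8 windows passed, and the fibroblast, blood and smooth muscle lists had 2 windows each with 0 passing. The cardiac homeobox gene Nkx2-5 was at 4.05%. The part of cell composition in the Hox values was not tested.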

How the data were processed

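RRBS libraries from 12 left ventricles were aligned by the submitters to mm10 and called with Bismark 0.19 after FastQC and Trim Galore, and limma was used, per the submitters' processing notes. The authors deposited 1 table of percent methylation per CpG position and sample, with no coverage. It was used as deposited. Of 39856 positions inside RefSeq promoters, counted from 1, 48.6% read C and 51.3% read G of a CpG, and 8 read otherwise.

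Genes came from the RefSeq table of GRCm38.p6, which lists no strand, promoters and starts from the RefSeq promoter table. Rates were transformed to log2((rate + 0.05)/(1 - rate + 0.05)) and fitted with limma 3.58.1 (R 4.3.3) with diet and sex, two-sided, Benjamini-Hochberg adjusted over all features, threshold 0.05. Only autosomal sites complete in 12 samples entered. Gene windows reached 5 kb and promoter windows 1 kb around starts, with at least 3 sites and no level limit. Tiles and single sites needed means of 5 to 95%. Windows with identical sites were joined. Values along a cluster count each window once, and 1 Hox gene is not reported here.

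The scripts were tested on simulated data. Whether equal replicate numbers pair samples is not known, and the main fits did not pair them. Members, companion lists and tests were chosen with earlier results of these data known. Named genes were, per cluster, the highest, lowest and smallest diet p, with like rules for promoters, tiles, sites and lists (2 smallest p). Other Hox genes were described after their values were seen. Alternatives varied windows, level limits, offset, transformation, missing values, sex term, replicate block and samples. Cluster means and Spearman's rho are descriptions without a test. The figures were drawn with matplotlib 3.10.9.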

Additional observations from a re-analysis of the deposited data

Results flagged for a closer look

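Within groups of 4 to 10 samples, single values far from the rest of their group were sought with Dixon's criterion at 95% in 60 groups of Hox values. By chance about 3 would be found, and 3 were. In the Hoxb6 window RD female 2 was at 0.63%, below the other RD samples (1.34 to 1.56%). In the Hoxc4 promoter window the same animal was at 5.83%, above the other RD samples (1.12 to 2.89%). In the Hoxd8 window HFD female 3 was at 4.63%, above the other HFD samples (2.08 to 2.88%).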

How the results depend on the processing

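No Hox feature was called for diet, sex or the interaction under any alternative that was run, with samples left out one at a time included. With a replicate block, 0 Hox windows were called. Samples with the same replicate number correlated at -0.0913 to 0.0394 over 13 pairs, and those with other numbers at -0.142 to 0.175 over 40. No pair of known relation was available for comparison, so this cannot show whether equal numbers mark a shared litter or batch. HFD means were higher in 28 to 31 of 37 Hox windows with 1 sample left out and in 25 of 38 with missing values allowed. The share over all windows was 49.7% in the main fit and is not given for these settings. With the mean of weakly methylated sites as a covariate, an alternative chosen after seeing the data, 6 Hox windows had an unadjusted p under 0.05, against 5 without it. The share of all windows at that threshold is not given for this fit, so the count cannot be set against it. With this covariate 0 of 37 Hox windows were called, against 18 of all 19279. Among the genes named by rule, signs turned for Hoxc9 (-1.22 points with sites inside the gene only, -0.564 with missing values allowed), Hoxd4 (-0.182 with missing values allowed) and the Hoxd12 promoter (-0.0517 within 500 bp). With missing values allowed they also turned for Hoxc13 (-0.413), Hoxd3 (-0.848) and Hoxd9 (-0.371). With 1 sample left out, differences spanned 0 for Hoxb1 (-1.18 to 1.46), Hoxc10 (-0.335 to 0.0386), Hoxd1 (-2.39 to 0.335), Hoxd4 and its tile (-1.58 to 2.77), and the promoters of Hoxc4 (-0.548 to 0.393) and Hoxd12 (-0.111 to 0.784). Averaging tile means moved cluster levels to 8.26% (HoxA), 9.07% (HoxB), 6.37% (HoxC) and 6.54% (HoxD). The whole span of HoxB gave 10.99%. Missing values allowed gave 5.42% in HoxD, with a diet difference of -0.406 points. Subtracting weakly methylated sites, added after seeing the data, gave 4.34%, 3.28%, 3.04% and 1.70%. Spearman's rho was -0.67 for HoxA and -0.54 for HoxB with tile means, -0.93 for HoxA with each site given to its nearest gene (added after seeing the data), and -0.37 to -0.083 for HoxD with 1 sample left out. The cause of these shifts was not tested. The planned coverage minimum of 20 was not run because the table has no coverage, so the depth behind single sites is unknown.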
